A study of Mus musculus with 6 samples.

Results

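The 9 genes described here encode surface proteins that hold blood progenitors in the bone marrow, let them roll and stick on vessel walls, or mark them as self: the chemokine receptor Cxcr4, the integrin chains Itga4, Itgb1, Itgal, Itgam and Itgb2, the selectin ligand Selplg, the hyaluronan receptor Cd44, and Cd47. They were chosen by name for these roles, with earlier results of these data known, and all 9 had a row in the deposited table of 56750 genes and passed the filter that left 13496 genes for testing. RNA was sequenced from bone marrow cells that the labels describe as Lin-, Sca1+ and cKit+ (LSK, the fraction that holds stem cells and multipotent progenitors), sorted from C57BL/6 mice. In the colitis group (DIC in the labels) mice had been given 2.5% dextran sulfate sodium (DSS), which injures the colon, for 5 days, while the other group is labelled control with no agent named. Each group had 3 mice and 3 libraries, and no age, sex or genetic change is given for either group. Libraries are called DIC 1 to 3 and control 1, 2 and 4 after the table's columns, and values are given in that order. The p-values below rest on the spread among these 6 libraries alone.

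In healthy marrow, CXCL12 made by stromal cells binds CXCR4 on stem and progenitor cells and keeps them in place, and the integrin formed by ITGA4 and ITGB1 (VLA-4) anchors them to VCAM1. The beta-2 integrins share the chain ITGB2: with ITGAL it forms LFA-1, found on most white blood cells, and with ITGAM it forms Mac-1 (CD11b/CD18), carried mainly by neutrophils and monocytes. PSGL-1, the product of Selplg, and CD44 bind selectins and hyaluronan, and CD47 signals to SIRPA on phagocytes so that the cell is not engulfed. Antibodies to CD11b are commonly part of the lineage mix that removes mature cells before an LSK sort. The labels do not list the antibodies used here, and no surface protein was measured.

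For the gene with the largest difference among the 9, Itgam, and for Cxcr4, which heads the retention pathway, the RefSeq promoter windows (250 bases before to 50 bases after the start of the transcript, build GRCm38.p6) are shown because they differ in the short motifs they hold. A window was found for 6 of the 9 genes, and Itgal, Itgb2 and Selplg were not matched. The Itgam window lies at chr7:128062390-128062689 on the plus strand and the Cxcr4 window at chr1:128592250-128592549 on the minus strand. The sequences are written 5′ to 3′ in the direction of the gene, and capitals mark matches, on either strand, to GAGGAA (the core of sites bound by PU.1, the myeloid factor encoded by Spi1), GGGCGG (the GC box) and TATAAA (the TATA box).
Itgam: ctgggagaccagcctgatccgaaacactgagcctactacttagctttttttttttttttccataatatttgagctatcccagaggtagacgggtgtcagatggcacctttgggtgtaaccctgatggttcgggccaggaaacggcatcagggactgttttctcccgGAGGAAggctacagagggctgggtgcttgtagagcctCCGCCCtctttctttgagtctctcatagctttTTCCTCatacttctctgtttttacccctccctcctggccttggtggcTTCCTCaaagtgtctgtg
Cxcr4: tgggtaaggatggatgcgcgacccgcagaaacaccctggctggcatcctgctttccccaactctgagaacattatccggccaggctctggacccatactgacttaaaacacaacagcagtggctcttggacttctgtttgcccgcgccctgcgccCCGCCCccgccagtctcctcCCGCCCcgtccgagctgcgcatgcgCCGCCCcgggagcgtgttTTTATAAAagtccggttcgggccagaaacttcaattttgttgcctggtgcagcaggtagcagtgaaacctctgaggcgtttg
The Itgam window held 3 matches to GAGGAA, whose first bases lie at -84, -15 and 33 relative to the transcript start, 1 GC box and 0 TATA boxes. The Cxcr4 window held 0 matches to GAGGAA, 3 GC boxes and a TATAAA match on each strand, which overlap, at -32 and -30. Among the other members, Cd44 had 2 matches to GAGGAA, Itgb1 had 1, and Itga4 and Cd47 had 0. Of 32851 promoter windows of this length, 28.3% held at least 1 GAGGAA on either strand and 0.685% held 3 or more, 35.7% held a GC box, 10.7% held 3 or more GC boxes, and 13.6% held a TATAAA. The motifs were picked after the sequences were seen. A match is a string of letters and not a measured binding site.

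The question was whether the genes that keep progenitors in the marrow, or let them leave, differ in level between DIC and control libraries. Among the 9 genes the values of Itgam and Itgb2, the chains of Mac-1, lay above those of the controls in every DIC library, by 3.84 and 2.65 times on the means. Those of Cxcr4, Itga4, Itgb1, Itgal, Selplg, Cd44 and Cd47 overlapped between the groups and differed by at most 1.29 times on the means. By limma with Benjamini-Hochberg adjustment over all tested genes, 0 of the 9 passed the threshold of 0.05, where 0.0593% of all tested genes did (0.037% with DIC higher). At an unadjusted p under 0.05 there were 2 of the 9, Itgam and Itgb2, both with DIC higher, against 20.2% of all tested genes (6.43% with DIC higher and 13.8% with DIC lower). The groups were apart for 2 of the 9, both with DIC higher, against 7.08% of tested genes with DIC higher and 18.4% with DIC lower, together 25.5%. For both directions together, the number of members whose groups are apart is therefore close to the share over all genes. For DIC higher alone it lies above that share. With 2 genes, from members chosen with earlier results known, no conclusion is drawn from this. Without control 2, limma called 2 of the 9, again Itgam and Itgb2, as higher in DIC, where 3.93% of tested genes were called higher and 8.45% lower. With any other single library left out it called 0 of the 9.

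**Figure D1:**
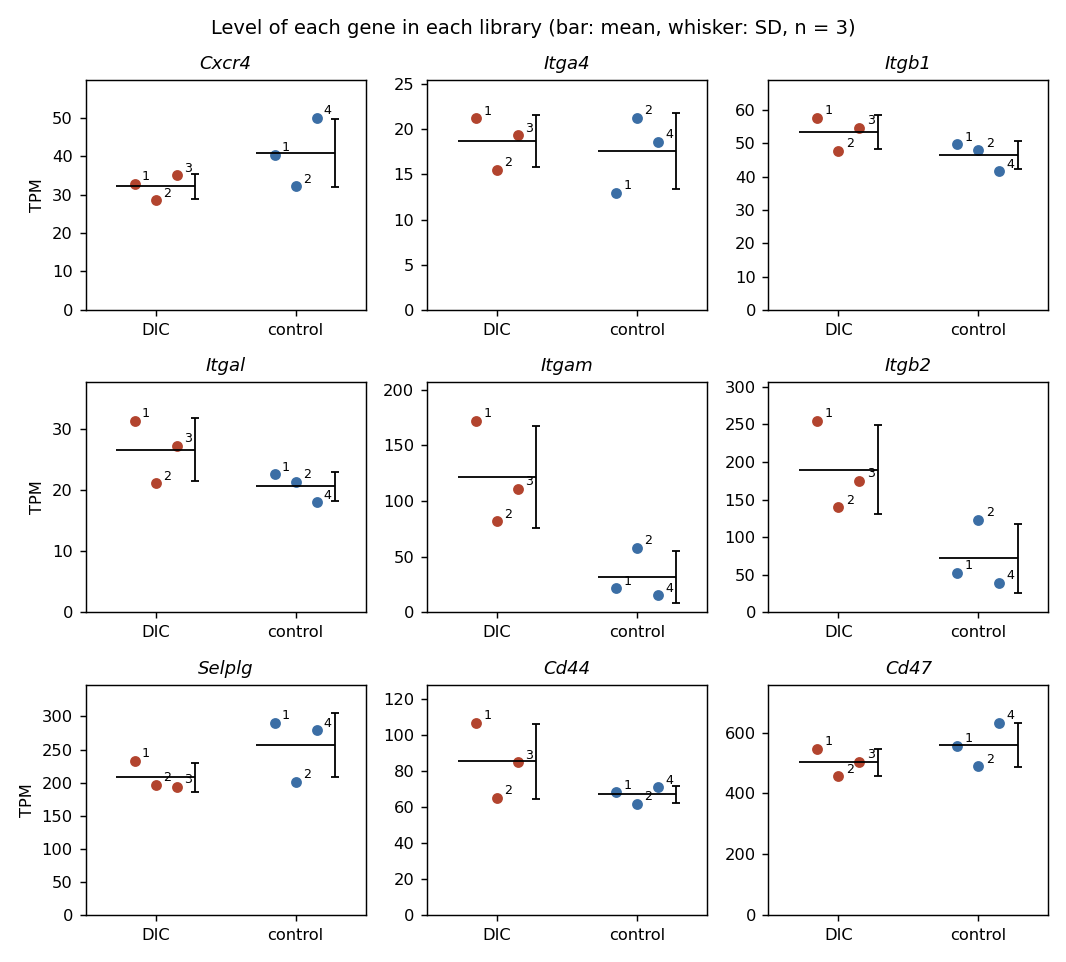
TPM of the 9 genes in the 3 DIC (red) and 3 control (blue) libraries, each panel with its own axis from 0, numbers giving the library, bars the mean and whiskers the SD. Itgam and Itgb2 separate the groups, with control 2 the highest control for both, and the other 7 genes overlap.

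Levels in TPM are scaled for transcript length and can be compared between genes. In control libraries the order on the means ran from Cd47 (559 ± 71.4 TPM, SD, n = 3) and Selplg (257 ± 48.5) through Itgb2 (71.7 ± 45.4), Cd44 (67.1 ± 4.65), Itgb1 (46.4 ± 4.24), Cxcr4 (40.8 ± 8.85) and Itgam (31.7 ± 23.1) to Itgal (20.6 ± 2.35) and Itga4 (17.6 ± 4.21). Only the steps from Cd47 to Selplg, from Selplg to Itgb2 and from Cd44 to Itgb1 exceeded the spread, in that the ranges of the neighbours did not overlap. In DIC libraries Itgam stood in the fourth place, at 122 ± 46.1 TPM, above Cd44 (85.6 ± 20.9), whose range it overlapped, and Itgb2 (190 ± 59.2) overlapped Selplg (208 ± 21.8) above it. Cd47 lay between percentiles 97.8 and 98.5 of all tested genes in every library and Selplg between 94.5 and 95.8, whereas Itgam ran from 52.4 to 94.1 and Itgb2 from 73.7 to 96.3.

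Of the retention receptors, Cxcr4 (ENSMUSG00000045382) measured 32.8, 28.5 and 34.97 TPM across DIC 1, 2 and 3, against 40.4, 32.2 and 49.9 TPM across controls 1, 2 and 4. Control 2 lay inside the DIC range and the other controls above it. The log2 fold change of TPM + 1, DIC minus control, was -0.32 ± 0.18 (SE, limma adjusted p = 0.353), with an unadjusted 95% interval of -0.75 to 0.11. The difference was smaller once the neutrophil markers described below were removed from the table and TPM rescaled (-0.12, limma adjusted p = 0.733), and larger without control 2 (-0.48, 0.0952). The rescaling raised genes in general, moving the median log2 fold change of all tested genes from -0.08 to 0.10, so the smaller value is not particular to Cxcr4. Itga4 (ENSMUSG00000027009), the alpha chain of VLA-4, measured 21.2, 15.5 and 19.3 TPM in DIC and 13.0, 21.2 and 18.6 in control. Its groups overlapped almost fully, and the log2 fold change was 0.10 ± 0.21 (limma adjusted p = 0.821, interval -0.41 to 0.60), with -0.10 without control 1. Itgb1 (ENSMUSG00000025809), its beta chain and that of several other integrins, measured 57.5, 47.7 and 54.7 TPM in DIC and 49.7, 47.8 and 41.6 in control. DIC 2 lay among the controls and the other DIC libraries above them (log2 fold change 0.20 ± 0.13, limma adjusted p = 0.422, interval -0.11 to 0.51). The ratio of Itgb1 to the summed Itga4, Itga5 and Itga6 was 1.2 ± 0.019 in DIC and 1.14 ± 0.175 in control.

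The larger differences were in the beta-2 integrin chains Itgam and Itgb2. Itgam (ENSMUSG00000030786) measured 172, 81.9 and 111 TPM in the DIC libraries, against 21.5, 58.1 and 15.4 TPM in the controls. Every DIC library lay above every control, and control 2 stood nearer to DIC 2 than to the other controls. The log2 fold change was 2.07 ± 0.49 (limma adjusted p = 0.212, unadjusted interval 0.92 to 3.21), so that it did not pass over all genes. Itgb2 (ENSMUSG00000000290), the shared beta chain, measured 255, 140 and 175 TPM in DIC and 52.5, 124 and 39.2 in control. Again the groups were apart with control 2 just under DIC 2, and the log2 fold change was 1.52 ± 0.42 (limma adjusted p = 0.212, interval 0.52 to 2.52). Itgal (ENSMUSG00000030830), the alpha chain of LFA-1, measured 31.3, 21.1 and 27.3 TPM in DIC and 22.5, 21.3 and 18.0 in control. DIC 2 lay among the controls, and the log2 fold change was 0.34 ± 0.18 (limma adjusted p = 0.325, interval -0.09 to 0.76). Without control 2 the log2 fold changes of Itgam and Itgb2 were 2.61 ± 0.32 and 2.0 ± 0.27 (limma adjusted p = 0.0175 and 0.0197, 5 libraries), and that of Itgal was 0.36 (0.277).

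**Figure D2:**
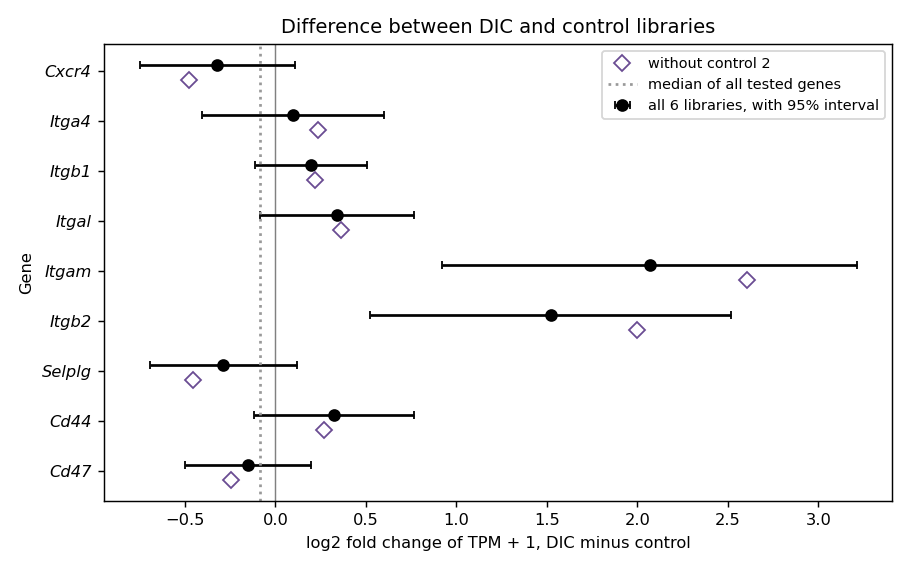
Log2 fold change of TPM + 1, DIC minus control, of each gene with its 95% interval from all 6 libraries (black) and the estimate without control 2 (open diamonds), beside the median of all tested genes at -0.08 (dotted). Intervals of Itgam and Itgb2 lie above 0 and those of the other 7 genes include it.

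Within a library, the mix of the alpha chains that pair with ITGB2 can be read without regard to how the library was scaled. Itgam made up 84.6%, 79.5% and 80.3% of the summed Itgal and Itgam TPM in the DIC libraries, against 48.9%, 73.2% and 46.1% in the controls. All DIC libraries lay above all controls, with a difference of 25.4 percentage points (81.5% ± 2.74 against 56.1% ± 14.9, SD, n = 3). A two-sided exact permutation test gave p = 0.1, the smallest that 3 libraries against 3 allow. The ratio of Itgb2 to the sum of its alpha chains Itgal, Itgam, Itgax and Itgad was 1.25, 1.34 and 1.25 in DIC and 1.14, 1.51 and 1.13 in control. The means of this ratio differed by less than its spread among controls (1.28 ± 0.053 against 1.26 ± 0.214, exact permutation p = 1), while the summed alpha chains stood at 150 ± 50.8 TPM in DIC and 54.2 ± 24.7 in control, with the groups apart. The ratio of Itgb2 to Itgb1 was 4.44, 2.92 and 3.2 in DIC and 1.06, 2.58 and 0.942 in control.

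**Figure D3:**
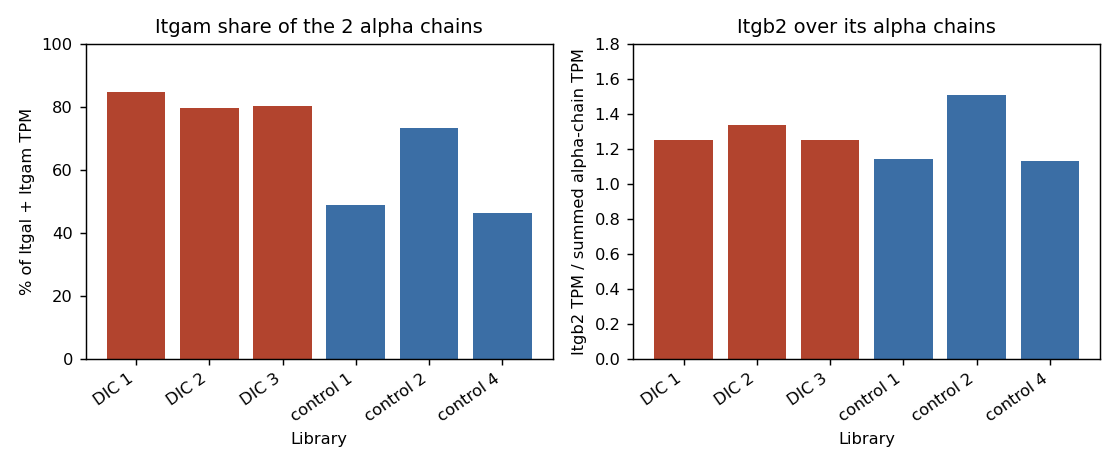
Left, Itgam as a percent of Itgal plus Itgam TPM in each library, DIC red and control blue. Right, the ratio of Itgb2 TPM to the summed TPM of Itgal, Itgam, Itgax and Itgad. The left bars are at 79.5% or more in DIC and at most 73.2% in control, and the right bars stay between 1.13 and 1.51.

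Neutrophil markers followed the Mac-1 chains across libraries. All 18 genes of a list without the 9 members (among them Ltf, Ngp, Camp, Ly6g, S100a8 and S100a9) had positive log2 fold changes with a median of 2.0, and the groups were apart for 13 of them, all with DIC higher. Of all tested genes, 41.5% had a positive log2 fold change, and the groups were apart with DIC higher for 7.08%. Summed, these 18 markers made up 22.8%, 15.6% and 19.1% of a DIC library's TPM, and 4.27%, 12.7% and 3.04% of a control library's. The order of the 6 libraries was the same for this sum, for Itgam and for Itgb2, from DIC 1 through DIC 3, DIC 2, control 2 and control 1 to control 4. S100a8 and S100a9 made up most of the sum. Without them the markers summed to 53030, 41080 and 45670 TPM in DIC and 10290, 32050 and 6546 in control, in the same order. Per 1000 TPM of all 18 markers, a ratio chosen after the values were seen, Itgam stood at 0.755, 0.525 and 0.580 TPM in DIC and 0.505, 0.459 and 0.507 in control. The lowest DIC library thus stayed above the highest control (exact permutation p = 0.1). In the same measure Itgb2 stood at 1.12, 0.894 and 0.915 in DIC and 1.23, 0.976 and 1.29 in control, where the groups overlapped. For the 5 markers whose groups overlapped, Olfm4, Stfa2l1, Mmp8, Cxcr2 and Retnlg, DIC 2 lay below the highest control, with Retnlg at 5102, 81.4 and 1953 TPM in DIC against 63.7, 109 and 72.0. The only marker listed at 0 in any library was Stfa2l1, in control 4. The part of neutrophil RNA in the differences of Itgam and Itgb2 was not tested, and in bulk RNA more cells of a type cannot be told apart from more RNA per cell.

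**Figure D4:**
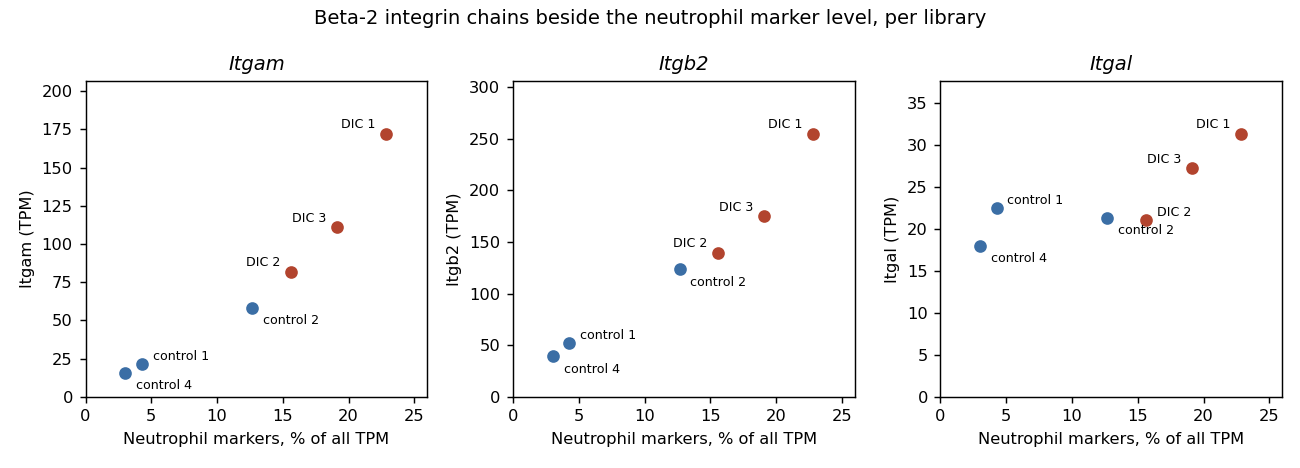
TPM of Itgam, Itgb2 and Itgal in each library against the share of all TPM taken by 18 neutrophil markers, DIC in red and control in blue. Itgam and Itgb2 lie in the same order as the marker share, from control 4 to DIC 1, whereas Itgal is as high in control 1 as in control 2 and DIC 2.

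The selectin ligand and the other surface proteins differed little. Selplg (ENSMUSG00000048163) measured 233, 197 and 194 TPM in DIC and 290, 201 and 279 in control. Control 2 lay inside the DIC range and the other controls above it (log2 fold change -0.29 ± 0.17, limma adjusted p = 0.376, interval -0.69 to 0.12). Without control 2 the log2 fold change was -0.45 (limma adjusted p = 0.0602), and with the neutrophil markers removed and TPM rescaled it was -0.08 (0.802). Cd44 (ENSMUSG00000005087) measured 107, 65.1 and 85.0 TPM in DIC and 68.3, 61.9 and 71.0 in control. DIC 1 and DIC 3 lay above the controls and DIC 2 among them (log2 fold change 0.32 ± 0.19, limma adjusted p = 0.364, interval -0.12 to 0.76). Cd47 (ENSMUSG00000055447), the highest of the 9, measured 547, 456 and 504 TPM in DIC and 557, 489 and 632 in control. The groups overlapped (log2 fold change -0.15 ± 0.15, limma adjusted p = 0.582, interval -0.50 to 0.19), and the sign of the difference depended on the scaling, with 0.06 after removal of the neutrophil markers and 0.16 after quantile normalization. The first of these scalings moved the median of all genes from -0.08 to 0.10.

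The genes most like a member were those with the smallest root-mean-square difference in log2(TPM + 1), each centred on its own mean, over the 6 libraries. For Itgam they were Rasgrp4, S100a8 and Cd300lf (differences of 0.158, 0.17 and 0.174), and for Itgb2 Ly75, Lyz2 and Fmo5 (0.08, 0.092 and 0.101). Lyz2 encodes a lysozyme of myeloid cells, at 8728, 5187 and 6390 TPM in DIC and 1632, 4303 and 1316 in control. For Cxcr4 they were Tpp2, Snx2 and Vapa (0.022, 0.031 and 0.036), a peptidase and a pair of membrane trafficking genes, and for Itgal Adam10, Arhgap30 and Nadk (0.045, 0.048 and 0.05). With 6 libraries such likeness is a description of these libraries alone.

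Around the 9 genes stood 9 lists of partner genes, with 225 different genes in all when the members are counted in, of which 223 had a row and 179 were tested. None passed limma's threshold (0 of 179), while 54 had an unadjusted p under 0.05, against 20.2% of all tested genes. Without control 2, limma called 21 of the 179 as higher and 9 as lower in DIC, against 3.93% and 8.45% of all tested genes. With any other single library left out it called at most 2 of the 179. The counts of groups apart given for each list below stand beside 25.5% of all tested genes, 7.08% with DIC higher and 18.4% with DIC lower. The median over all tested genes was a log2 fold change of -0.08, with 41.5% positive.

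Some partners on the niche side were at very low levels. Cxcl12, the ligand of CXCR4, measured 0.5, 0.11 and 0.84 TPM in DIC and 0.17, 0.15 and 0.81 in control, under the filter. Of 11 endothelial and stromal markers, Cxcl12 among them, only Pdgfrb passed the filter, at 1.44, 2.01 and 2.84 TPM in DIC and 1.72, 4.69 and 1.75 in control. Of the rest, Tek reached 1.73 TPM and Emcn 1.43 TPM in control 2, while Cdh5 and Lepr were at most 0.07 TPM in any library. The 11 markers summed to between 3.21 and 8.17 TPM per library, with control 2 the highest. Of the 16 ligand and partner genes tested, the groups were apart for 2 with DIC higher and 4 with DIC lower. Vcam1, which binds VLA-4, measured 83.3, 77.0 and 76.7 TPM in DIC and 39.8, 67.7 and 63.3 in control, and Sirpa, the receptor of CD47, 85.2, 54.8 and 60.1 against 43.8, 51.1 and 35.4. For both, the lowest DIC library lay above the highest control (log2 fold changes 0.50 and 0.60, limma adjusted p = 0.237 and 0.214). Icam1, which binds both LFA-1 and Mac-1, measured 6.5, 7.56 and 5.53 TPM in DIC and 25.0, 10.8 and 24.1 in control, a log2 fold change of -1.40 ± 0.32 (limma adjusted p = 0.212). Mif, a cytokine that can bind CXCR4, and Cd74, its own receptor, also lay lower in every DIC library than in every control, at 632 ± 167 against 1319 ± 449 TPM and 142 ± 6.58 against 253 ± 49.9. Without control 2, Icam1, Mif and Cd74 were called lower (limma adjusted p = 0.0123, 0.0278 and 0.0364).

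Of 9 other integrin chains tested, the groups were apart for 1, Itgb3, which pairs with Itgav and with the platelet chain Itga2b. It measured 6.53, 5.19 and 4.47 TPM in DIC and 1.45, 3.55 and 2.47 in control, a log2 fold change of 0.91 ± 0.28 (limma adjusted p = 0.212). Itgb7, which pairs with Itga4 in a receptor for gut homing, measured 28.3, 12.8 and 14.4 TPM in DIC and 51.4, 27.3 and 42.3 in control. DIC 1 lay just above control 2 and the other DIC libraries below every control (log2 fold change -1.12 ± 0.34, limma adjusted p = 0.212), and the ratio of Itgb7 to Itga4 was 1.33, 0.826 and 0.744 in DIC and 3.96, 1.29 and 2.28 in control. The fibronectin and laminin receptor chains Itga5 and Itga6 had log2 fold changes of 0.13 and 0.16 (limma adjusted p = 0.758 and 0.614). Basophil and mast cell markers also lay lower in DIC: all 6 tested of 8 listed had negative log2 fold changes. The 8 summed to 301, 397 and 482 TPM in DIC and 1543, 911 and 3372 in control. The sum did not follow the order of Itgb7 within the groups. DIC 1 had the lowest sum but the highest Itgb7 in DIC, and control 4 had the highest sum but control 1 the highest Itgb7. The part of these markers in the Itgb7 values was not tested.

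The genes that switch integrins on or tie them to actin had positive log2 fold changes in 24 of 32 cases, with a median of 0.13. The groups were apart for 5 of the 32, 4 with DIC higher and 1 with DIC lower, against 7.08% and 18.4% of all tested genes. Both directions together were a smaller share than over all tested genes, and DIC higher alone a larger one. Flna, an actin crosslinker that binds integrin tails, measured 220, 157 and 183 TPM in DIC and 119, 132 and 95.2 in control, a log2 fold change of 0.69 ± 0.18 (limma adjusted p = 0.212), and the adaptor Vcl 33.1, 24.1 and 27.2 against 12.6, 23.5 and 7.79 (1.01 ± 0.36, 0.214). The lowest DIC value exceeded the highest control in both, and without control 2 both were called higher (limma adjusted p = 0.0433 and 0.0271). Stk4, a kinase needed for lymphocyte adhesion, measured 53.5 ± 10.8 against 38.4 ± 3.72 TPM (limma adjusted p = 0.221).

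Selectin and selectin-ligand genes showed no common direction, with 12 positive and 9 negative log2 fold changes and a median of 0.02. The groups were apart for 4 of the 21 tested, 1 with DIC higher and 3 with DIC lower. Fut7, a fucosyltransferase that completes selectin ligands, measured 21.3 ± 4.6 TPM in DIC and 26.2 ± 2.94 in control, and Gcnt1, which builds their branched sugars, 9.6 ± 2.82 against 7.27 ± 1.57. The groups overlapped for both. Cd34, which marks progenitors, measured 63.9, 95.8 and 92.1 TPM in DIC and 102, 129 and 125 in control, and Cd24a 396, 248 and 325 against 205, 234 and 227. B3gnt5, which extends sugar chains on lipids, measured 7.54, 6.25 and 7.02 TPM in DIC and 13.3, 8.23 and 13.5 in control. The groups of Cd34, Cd24a and B3gnt5 were apart, with DIC higher for Cd24a (limma adjusted p = 0.218, 0.216 and 0.213).

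Genes that couple or shut off CXCR4 had a median log2 fold change of 0.24, with 16 of 23 positive. The groups were apart for 5 of the 23, 3 with DIC higher and 2 with DIC lower, against 7.08% and 18.4% of all tested genes. Both directions together were close to the share over all tested genes, and DIC higher alone was above it. Arrb2, an arrestin that ends receptor signalling, measured 215, 168 and 153 TPM in DIC and 94.96, 169 and 70.4 in control, with control 2 inside the DIC range. Rgs14 and Rgs10, which speed the shut-off of G proteins, differed in opposite directions with groups apart, at 37.4 ± 5.38 against 24.4 ± 4.39 TPM and 19.6 ± 3.29 against 30.3 ± 7.0 (limma adjusted p = 0.212 and 0.214). Of 20 other chemokine and exit receptors tested, the groups were apart for 4 in each direction. S1pr1, the receptor through which cells leave toward blood, lay near the filter at 1.76, 1.2 and 1.31 TPM in DIC and 1.8, 2.06 and 3.82 in control, while Cxcr2, the neutrophil release receptor, measured 87.0, 6.95 and 30.4 against 2.28, 9.13 and 2.59, with DIC 2 below control 2. C5ar1, the receptor of a complement fragment that draws in myeloid cells, measured 133, 26.9 and 64.4 TPM in DIC and 9.45, 25.5 and 3.21 in control, with control 2 just under DIC 2. Sphk1, which makes the ligand of S1pr1, measured 35.4, 16.0 and 25.5 TPM in DIC and 8.56, 12.4 and 7.36 in control, a log2 fold change of 1.31 ± 0.31 (limma adjusted p = 0.212).

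Proteases that can cut CXCL12, VCAM1 or matrix, with their inhibitors, had a median log2 fold change of 0.39, the highest of the 9 partner lists, with 17 of 21 positive and the groups apart for 5 with DIC higher and 1 with DIC lower. Mmp9, a gelatinase stored in neutrophil granules and also a member of the neutrophil list, measured 646, 28.8 and 243 TPM in DIC and 5.74, 26.1 and 4.27 in control, so that DIC 2 exceeded control 2 only slightly. Reck, which inhibits such proteases at the cell surface, measured 9.32, 6.79 and 6.32 TPM in DIC and 2.39, 4.44 and 1.95 in control, a log2 fold change of 1.15 ± 0.28 (limma adjusted p = 0.212). Elane, the elastase of early granules, was at 11170 ± 1349 against 11560 ± 709 TPM, whereas Ctsg, another protease of the same granules, was at 1785, 2173 and 1907 TPM in DIC and 3304, 2221 and 3713 in control. Their log2 fold changes were -0.06 and -0.63 (limma adjusted p = 0.913 and 0.219). Among other adhesion molecules the groups were apart for 11 of 22, 4 with DIC higher and 7 with DIC lower, against 7.08% and 18.4% of all tested genes. Ceacam1 measured 234, 162 and 197 TPM in DIC and 58.9, 155 and 60.6 in control, with control 2 just under DIC 2, and Bst2 measured 43.7, 49.7 and 53.4 against 129, 75.8 and 243. In the list of signals to phagocytes the groups were apart for 6 of 11, 4 with DIC higher and 2 with DIC lower. Among those with DIC higher, the inhibitory receptor gene Lilrb4a measured 262, 49.5 and 139 TPM in DIC and 33.3, 34.2 and 45.5 in control. The activating receptor gene Pilrb1 measured 79.3, 59.8 and 68.0 against 26.7, 49.3 and 28.9 (limma adjusted p = 0.212 for both).

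**Figure D5:**
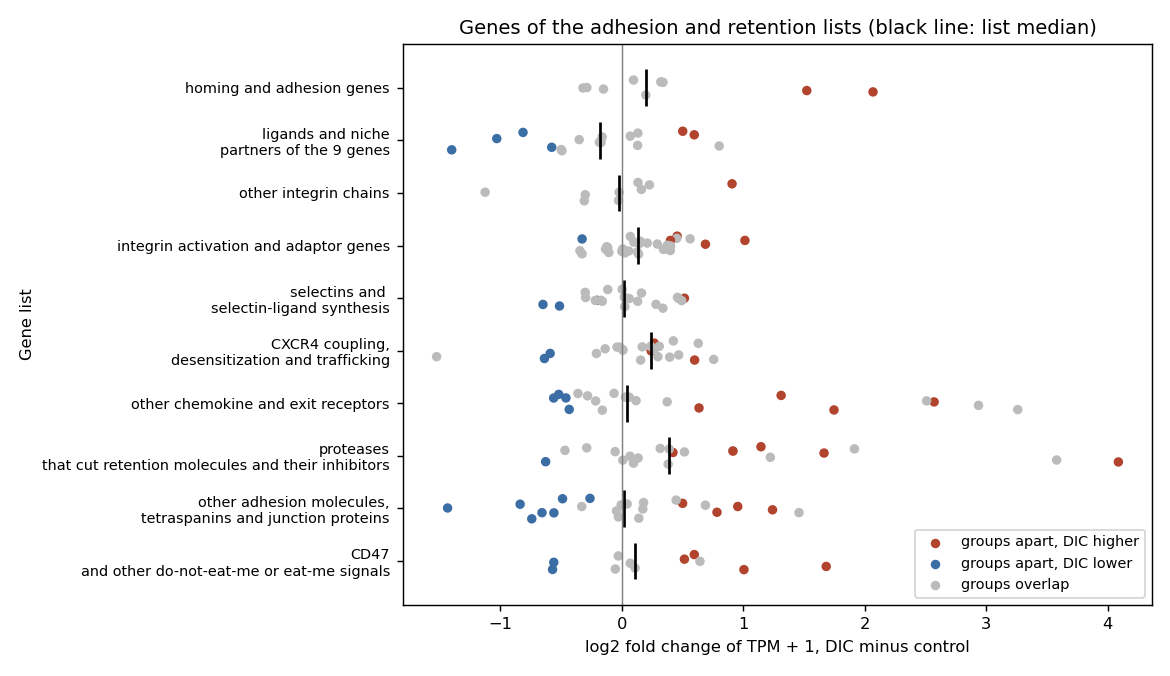
Log2 fold change of TPM + 1, DIC minus control, of each tested gene in the 9 homing and adhesion genes and the 9 partner lists, coloured by whether the 3 DIC libraries lie apart from the 3 controls, with list medians as black lines. Medians run from -0.18 for ligands and partners to 0.39 for proteases and their inhibitors.

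Across the series, the number of genes above 0 TPM per library ran from 20474 to 22720, and TPM keeps no sequencing depth, so no counting interval could be given. The genes of the sort were present but modest: Kit measured 89.4 ± 6.57 TPM in DIC and 74.0 ± 23.2 in control, and Ly6a, which encodes Sca1, 19.4 ± 4.14 and 34.2 ± 15.2. Itgam exceeded Ly6a in every DIC library and in controls 1 and 2, and lay below it in control 4, at 15.4 against 49.9 TPM. Of 9 monocyte, macrophage and dendritic markers tested, 4 had positive and 5 negative log2 fold changes, with a median of -0.24. All 10 listed summed to 5139, 4970 and 4853 TPM in DIC and 6362, 4505 and 7172 in control. Nearly all of this sum was Ly6c2, at 4994, 4869 and 4754 TPM in DIC and 6191, 4382 and 7026 in control. The sum did not follow the order of Itgam over the libraries, but it says little about the other listed markers. The part of monocyte RNA in the Itgam values was not tested. Erythroid markers had 11 of 11 positive log2 fold changes and megakaryocyte markers 4 of 7, where 41.5% of all tested genes were positive. Negative values were found for 7 of 7 B lineage markers, 6 of 6 T and NK markers, 8 of 9 markers of granulocyte-monocyte progenitors and 6 of 11 markers of stem and multipotent progenitors. The last of these counts lay close to the share over all tested genes. Among the B lineage markers Ighm was at -0.009. The T and NK markers tested, apart from Nkg7, were low, at most 6.44 TPM in any library.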

How the data were processed

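RNA from cells sorted as LSK from 3 DIC and 3 control mice was measured by sequencing of SMART-Seq low-input libraries, per the labels' protocols. The authors deposited 1 table of TPM per gene. The submitters' processing notes name fastp 0.19.5, HISAT2 2.1.0, StringTie 2.1.2 and GRCm39, and no annotation release is given in the sources used here. Columns 1 and 4 of the controls were mapped to the group only, since 1 sample's title and description carry both numbers. No control column carries the number 3, and that the 3 control columns came from different mice could not be checked. Symbols came from GENCODE of GRCm38 by gene identifier (52081 of 56750 rows). No gene coordinates are given, since the builds differ, apart from the RefSeq promoter windows, which keep their own build.

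Genes that reached 1 TPM in 3 or more of the 6 libraries were tested as log2(TPM + 1) with limma 3.58.1 in R 4.3.3 (mean-variance trend, two-sided, Benjamini-Hochberg over 13496 genes, threshold 0.05). Fold changes on this scale understate changes of low genes, and StringTie's division of reads among overlapping genes makes such genes uncertain. TPM is relative to the library total, so a higher share of abundant transcripts lowers every other value. The fit was tested on simulated data. Library pairs correlated at 0.907 to 0.964, so none was an exact copy of another. Such values cannot tell whether libraries came from the same mouse.

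The members and lists were chosen with earlier results of these data known. Named genes were the members, in each list those past the threshold or otherwise the 3 with the lowest p, and a fixed set that includes Cxcl12, Vcam1, Sirpa and Kit, of which 1 gene is not reported here. Cdh5, Lepr, Tek, Emcn, Ngp, Camp, S100a8, S100a9, Stfa2l1, Olfm4, Mmp8, Retnlg, Ly6c2, Ighm and Nkg7 were named beside them as list members, after their values were seen. Alternatives were pseudocount, filter, scaling, trend, array weights, each library left out and a replicate block. In the replicate block, only libraries whose column number occurs in both groups entered the difference. Protein sequences were not used here.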

Additional observations from a re-analysis of the deposited data

How the results depend on the processing

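Of 126 refits of the 9 genes (14 settings each), 121 kept the sign and the side of the threshold, 2 passed it and 3 changed sign. Those that passed were Itgam and Itgb2 without control 2. The sign changed for Itga4 without control 1 (-0.096, within -0.096 to 0.238 with 1 library left out) and for Cd47 with quantile normalization (0.16) and with neutrophil markers removed (0.056), and the cause was not tested. The number of the 9 past the threshold was 0 in all other settings, and ran from 0 to 2 with 1 library left out. Over all genes 8 passed, against 5 with a pseudocount of 0.1 TPM, 0 with no filter (28869 genes tested) and 0 to 1671 with 1 library left out: 0 without DIC 1 or control 4, 20 without DIC 2 and 1671 without control 2. Over the lists with the 9 genes counted in, the count ran from 0 to 30 in the same way, with 2 without DIC 2 and 30 without control 2. The Itgam share differed by 20.45 to 33.98 percentage points with 1 library left out.

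Among other named genes, signs changed for Pdgfrb with array weights (0.114) and without control 2 (0.154), Itga6 in the replicate block (-0.002), Itga5 in the block (-0.129) and without control 4 (-0.083), and Elane with quantile normalization (0.014), neutrophil markers removed (0.153), without DIC 1 (0.013) and in the block (0.019). With 1 library left out, their log2 fold changes ran from -0.378 to 0.154 for Pdgfrb, -0.083 to 0.289 for Itga5 and -0.15 to 0.013 for Elane.

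With the column numbers as a replicate block, 0 of the 9 and 8 of all genes passed. Only the numbers 1 and 2 occur in both groups. The difference in this fit therefore rests on DIC 1, DIC 2, control 1 and control 2 alone. The remaining library of each group stood alone in its block and did not enter it. The numbers 1 and 2 name different mice in DIC and control, and deviations from the group means correlated at -0.068 and -0.102 within them. With 3 libraries per group, such values cannot tell whether libraries of the same number were handled together. With no depth in TPM, low values such as those of S1pr1 and Cxcl12 cannot be bounded.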
